A study of Mus musculus with 9 samples.

Results

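The 10 genes described here, H19, Igf2, Dlk1, Meg3, Rian, Mirg, Peg3, Cdkn1c, Plagl1 and Grb10, are imprinted genes known as regulators of growth before and around birth, the heart included. They were chosen by gene symbol from a count table of 55401 genes, and 10 of 10 passed the filter on low counts that left 16762 genes for testing. The counts came from primary neonatal mouse ventricular myocytes, abbreviated NMVMs, isolated from wild-type C57BL/6J pups at 1 day of age, with 3 libraries in each of 3 groups. Control cultures stayed at normal oxygen in DMEM with 10% FBS. The hypoxia cultures were kept for 6 h in DMEM that lacked glucose and serum, inside a closed chamber with an AnaeroPack-MIC oxygen absorber. The hypoxia + rSRGN cultures had the same chamber and medium, with recombinant SRGN (rSRGN) added. SRGN is serglycin, a secreted proteoglycan. Low oxygen, loss of glucose and loss of serum cannot be told apart in any comparison with control. Nothing in the labels says that the 3 libraries of a group came from separate litters or isolations, so the p-values measure the spread between these libraries, which may be technical.

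An imprinted gene is transcribed mainly from the copy inherited from 1 parent, because a DNA methylation mark set in the germ line marks the parental origin of a control region. Igf2, Dlk1, Peg3 and Plagl1 are expressed from the paternal copy, and H19, Meg3, Rian, Mirg, Cdkn1c and Grb10 from the maternal copy, except for Grb10 in neurons. Many of these genes are highly expressed in fetal tissue and decline after birth, and paternally expressed members tend to promote growth while maternally expressed members tend to restrain it. The pups were inbred, and the counts do not separate the parental copies, so no value here is allele-specific.

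Poly(A)-enriched libraries gave total counts of 21669017 to 22781557 in control, 16583985 to 18148474 in hypoxia and 16640239 to 20826701 in hypoxia + rSRGN. Levels are given as CPM, counts relative to library size, scaled by trimmed mean of M-values (TMM), and as CPM per kb of exon where genes are compared with each other. A gene was called when its fold change reached 1.5 in either direction, which is 0.58 on the log2 scale, with an adjusted p below 0.05 in the quasi-likelihood test of edgeR, adjusted by the Benjamini-Hochberg method over all 16762 genes. The labelled cell type was checked against markers. The summed level of 10 cardiomyocyte markers was 41877 to 51519 CPM in control, 3561 to 5357 CPM in hypoxia and 6823 to 7237 CPM in hypoxia + rSRGN, and 10 of 10 were called lower in hypoxia. The summed level of 8 fibroblast markers was 8585 to 10184 CPM in control and 16728 to 19535 CPM in hypoxia, and 5 of 8 were called higher. The cultures thus carried abundant cardiomyocyte transcripts together with fibroblast transcripts, and the balance of these marker lists differed between control and hypoxia. In bulk libraries, fewer cells of a type and less RNA per cell cannot be told apart.

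The 10 genes lie at 6 places in the mouse genome (GRCm38). Dlk1 (chr12:109452823-109463336), Meg3 (chr12:109541001-109571726), Rian (chr12:109603808-109661716) and Mirg (chr12:109729764-109749460) share the plus strand of chromosome 12 within 296.6 kb, known as the Dlk1-Dio3 domain. Dlk1 encodes a transmembrane protein of the Notch ligand family, whereas Meg3, Rian and Mirg are long noncoding RNAs that carry snoRNAs and miRNAs. H19 (chr7:142575529-142578143), a long noncoding RNA, and Igf2 (chr7:142650766-142666816), the fetal insulin-like growth factor, are neighbours on the minus strand of chromosome 7, with starts 88.7 kb apart. Cdkn1c (chr7:143458339-143461050), an inhibitor of cyclin-dependent kinases, starts 794.2 kb from the start of Igf2 in a separate imprinted domain. Peg3 (chr7:6703892-6730431) and Plagl1 (chr10:13060504-13131694) encode zinc finger transcription factors, and Grb10 (chr11:11930508-12038683) encodes an adaptor that binds and dampens the insulin and IGF1 receptors.

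Shared exons limited what the counting could see. Fragments were counted without strand, and a fragment with both reads on exons of the same 2 genes was dropped. Of the 5723 exonic bases of Igf2, 3694 (64.5%) were shared with other annotated genes, chiefly 3596 bases with the readthrough gene Gm49394, which had 0 counts in all libraries. These shared bases held 546 of the 678 annotated coding bases of Igf2, so its values rest on fragments that reached the remaining exons. Igf2os, the antisense gene, shared 98 bases. For Cdkn1c, 625 of 2039 exonic bases (30.7%), all of them coding, were shared with the antisense gene Gm44732, which also had 0 counts. The shared part was 9.15% for H19, 5.03% for Mirg, 3.35% for Rian, 1.5% for Meg3 and 0.486% for Plagl1, and Dlk1, Peg3 and Grb10 shared 0 bases.

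The noncoding members are hosts of small RNAs, and the sequences show which small RNAs lie in the host exons. RefSeq places 39 mature miRNAs from 21 hairpins inside the 10 genes on the same strand, 26 of them in Mirg, 6 in Rian, 3 in Meg3, 2 in H19 and 2 in Igf2. Of these, 13 mature miRNAs lie wholly within the host's exons, and they are printed here 5′ to 3′ with the seed (bases 2 to 8) in capitals. The first pair lies in H19, the next 3 in Meg3 and the other 8 in Mirg.
miR-675-3p: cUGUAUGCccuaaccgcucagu
miR-675-5p: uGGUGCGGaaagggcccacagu
miR-1906: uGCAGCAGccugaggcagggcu
miR-770-5p: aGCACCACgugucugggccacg
miR-770-3p: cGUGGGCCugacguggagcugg
miR-134-5p: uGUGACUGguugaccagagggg
miR-134-3p: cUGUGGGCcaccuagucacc
miR-485-3p: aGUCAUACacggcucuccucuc
miR-377-5p: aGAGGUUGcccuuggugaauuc
miR-377-3p: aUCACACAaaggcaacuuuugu
miR-410-5p: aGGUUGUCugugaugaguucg
miR-410-3p: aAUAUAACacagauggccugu
miR-3072-3p: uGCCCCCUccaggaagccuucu

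The 39 miRNAs had 38 different seeds. The 1 seed found more than once joined a pair inside Mirg introns, shown for comparison.
miR-453: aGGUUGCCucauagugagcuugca
miR-496a-5p: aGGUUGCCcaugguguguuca
Mature miRNAs are too short for a poly(A) library of this kind and were not measured. The hairpins are annotated as genes of their own, so fragments with both reads over these stretches were not counted for the host either. What was measured is the rest of the host RNA, so the values below say nothing of the level of any mature miRNA.

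Per kb of exon, the order of the 10 genes in control was Grb10 at 91.8 ± 3.97 CPM per kb (SD, n = 3), H19 at 44.8 ± 3.54, Plagl1 at 26.8 ± 1.39, Peg3 at 16.1 ± 0.638, Meg3 at 12.2 ± 0.650, Rian at 6.95 ± 0.612, Dlk1 at 6.45 ± 0.250, Cdkn1c at 6.40 ± 0.645, Igf2 at 1.40 ± 0.295 and Mirg at 1.01 ± 0.0353. Rian and Dlk1, and Dlk1 and Cdkn1c, overlapped in their libraries, and every other pair of neighbours in that order was separate. In hypoxia the order began with H19 at 50.4 ± 5.38 CPM per kb and Grb10 at 44.0 ± 2.84, which overlapped, followed by Meg3 at 33.2 ± 3.56, Dlk1 at 23.7 ± 1.54 and Rian at 19.7 ± 0.591. Peg3, Plagl1, Mirg, Cdkn1c and Igf2 followed between 10.9 and 0.650 CPM per kb, and of these Plagl1 and Mirg overlapped. Meg3, Dlk1 and Rian, which were below Peg3 and Plagl1 in control, stood above both in hypoxia. In hypoxia + rSRGN the order was that of hypoxia apart from the first pair, where Grb10 at 54.2 ± 2.46 CPM per kb and H19 at 46.8 ± 7.91 overlapped. Divided by the exon bases that no other gene shares, Igf2 in control was 3.94 CPM per kb and Cdkn1c 9.23 CPM per kb, which places Cdkn1c above Rian and Dlk1 on that scale.

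**Figure D1:**
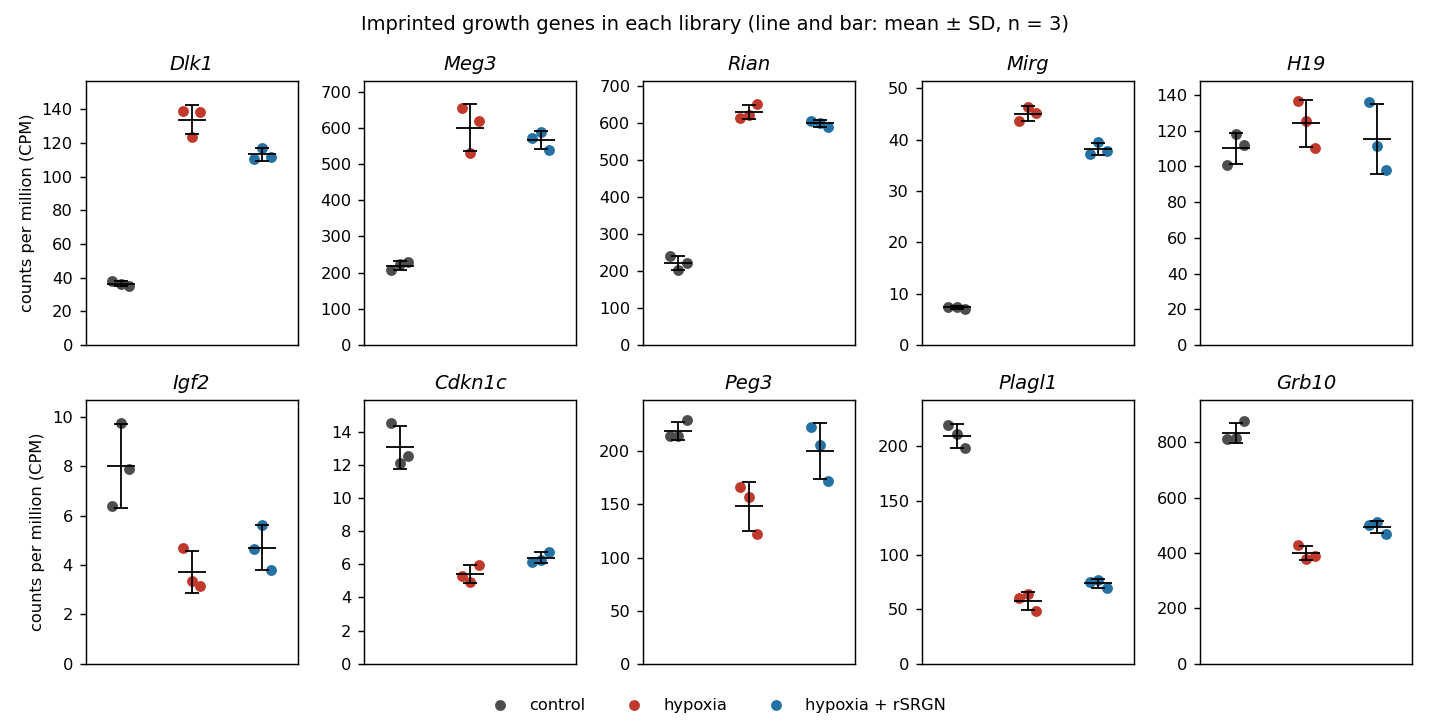
TMM-scaled CPM of the 10 imprinted growth genes in each library, with control in grey, hypoxia in red and hypoxia + rSRGN in blue, points for the 3 libraries of a group and a black line and bar for mean ± SD. The 4 genes of the chromosome 12 domain are higher in both hypoxic groups than in control, for example Mirg at 7.05 to 7.50 CPM in control and 43.6 to 46.5 CPM in hypoxia, whereas H19 overlaps across the groups.

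The first comparison asked how these genes differed between hypoxic and control cultures. Dlk1, Meg3, Rian and Mirg, the 4 of the 10 that lie in the Dlk1-Dio3 domain, were called higher in hypoxia, Igf2, Cdkn1c, Plagl1 and Grb10 were called lower, and H19 and Peg3 were not called. Across all genes tested, 26.4% were called higher and 25.1% lower in this comparison, so a call in either direction was common. In 9 of the 10 genes the hypoxia and control libraries did not overlap, against 73% of all genes tested. The median log2 fold change was -0.20 over the 10 genes and 0.054 over all genes tested.

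Mirg, the noncoding host of the miRNA cluster at the far end of the domain, had the largest change of the 10. It was 7.50, 7.50 and 7.05 CPM in the control libraries and 43.6, 46.5 and 45.2 CPM in the hypoxia libraries. Every hypoxia library stood far above every control library, and the groups did not overlap. The log2 fold change was 2.61 (SE 0.099, adjusted p = 5.42e-16), a 6.13-fold rise.

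Dlk1, the paternally expressed coding gene of the domain, was 38.01, 36.3 and 35.2 CPM in control and 139, 124 and 138 CPM in hypoxia. All hypoxia libraries were high, with the second the lowest of them, and the rise was 3.67-fold (log2 fold change 1.87, SE 0.076, adjusted p = 1.59e-15). Meg3, the maternally expressed noncoding RNA whose promoter region carries a methylation mark of the domain, was 207, 223 and 229 CPM in control and 655, 530 and 618 CPM in hypoxia. It rose 2.73-fold (log2 fold change 1.45, SE 0.081, adjusted p = 4.30e-13), with no overlap. Rian, the host of the domain's snoRNAs, was 241, 202 and 223 CPM in control and 615, 623 and 651 CPM in hypoxia. It rose 2.83-fold (log2 fold change 1.502, SE 0.075, adjusted p = 5.21e-14), close to the value for Meg3. The paternally expressed Dlk1 and the maternally expressed Meg3, Rian and Mirg therefore all moved in the same direction. The fibroblast marker list, with a median log2 fold change of 0.76, and 6 of 6 epicardial markers, with a median of 1.85 and summed levels of 241 to 267 CPM in control and 890 to 961 CPM in hypoxia, were higher in the same libraries, and their part in the rise of these genes was not tested.

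H19 and Igf2 use a shared control region and shared enhancers, and they differed in this comparison. H19 was 101, 118 and 112 CPM in control and 137, 125 and 110 CPM in hypoxia. The libraries overlapped, and the log2 fold change of 0.17 (95% interval -0.039 to 0.38, adjusted p = 0.135) did not pass the test. The adjusted p was below 0.05 with scaling by library size alone (log2 fold change 0.24, adjusted p = 0.0314) and without hypoxia replicate 3 (0.25, adjusted p = 0.0377), and it was 0.127 to 0.491 in the other alternatives, at changes below the fold limit throughout. With 1 library left out, the H19 value ranged from 0.090 (without control replicate 1) to 0.25. Igf2 was 6.38, 9.75 and 7.88 CPM in control and 4.67, 3.35 and 3.13 CPM in hypoxia. The groups did not overlap, and Igf2 fell to 0.466 of its control level (log2 fold change -1.10, SE 0.21, adjusted p = 8.71e-05). These levels came from 54 to 216 fragments per library, the fewest of the 10 genes together with Mirg and Cdkn1c. Igf2os, antisense to Igf2, was also called lower (log2 fold change -2.16, adjusted p = 9.92e-05). Without strand, a read of either gene that falls on an exon of the other cannot be told apart.

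Cdkn1c, which encodes the cell cycle inhibitor p57, was 14.6, 12.1 and 12.5 CPM in control and 5.32, 4.91 and 5.97 CPM in hypoxia. All hypoxia libraries were low, and the gene fell to 0.414 of its control level (log2 fold change -1.27, SE 0.15, adjusted p = 7.26e-08). Plagl1, a zinc finger factor placed upstream of other imprinted genes in earlier work on growth control, was 219, 211 and 198 CPM in control and 60.2, 63.8 and 48.1 CPM in hypoxia. It fell to 0.274 of its control level (log2 fold change -1.87, SE 0.090, adjusted p = 3.05e-14), the largest fall of the 10. Grb10, the receptor-binding adaptor, was 812, 815 and 876 CPM in control and 429, 380 and 390 CPM in hypoxia. It fell to 0.479 of its control level (log2 fold change -1.06, SE 0.073, adjusted p = 1.59e-11), without overlap.

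Peg3, a zinc finger factor with a role in growth and maternal behaviour, was 215, 214 and 229 CPM in control and 166, 157 and 122 CPM in hypoxia. Every hypoxia library was below every control library, and the third hypoxia library was the lowest. The log2 fold change of -0.57 (SE 0.10, adjusted p = 3.07e-05) passed the test and missed the fold limit of 0.58. It passed both with DESeq2 at -0.59, and also without control replicate 1 (-0.60), control replicate 2 (-0.60), hypoxia replicate 1 (-0.66) or hypoxia replicate 2 (-0.61), so the call for Peg3 depended on these choices. In the libraries where Igf2, Cdkn1c, Plagl1 and Grb10 fell, the cardiomyocyte list had a median log2 fold change of -3.70 and 6 of 6 macrophage markers a median of -3.89, with summed levels of 225 to 240 CPM in control and 24.2 to 26.8 CPM in hypoxia. Of the 6 endothelial markers 4 were called lower, with a median of -0.95 and summed levels of 63.6 to 88.5 CPM in control and 46.2 to 56.1 CPM in hypoxia. Among the 6 smooth muscle and pericyte markers 1, Abcc9, was called lower and 5 were not called. That list had a median of -0.34 and summed levels of 655 to 747 CPM in control and 293 to 319.9 CPM in hypoxia. Abcc9 alone averaged 381 CPM in control and 25.0 CPM in hypoxia (log2 fold change -3.93), so most of the fall in the sum came from this 1 gene. The part of these marker changes in the falls was not tested.

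**Figure D2:**
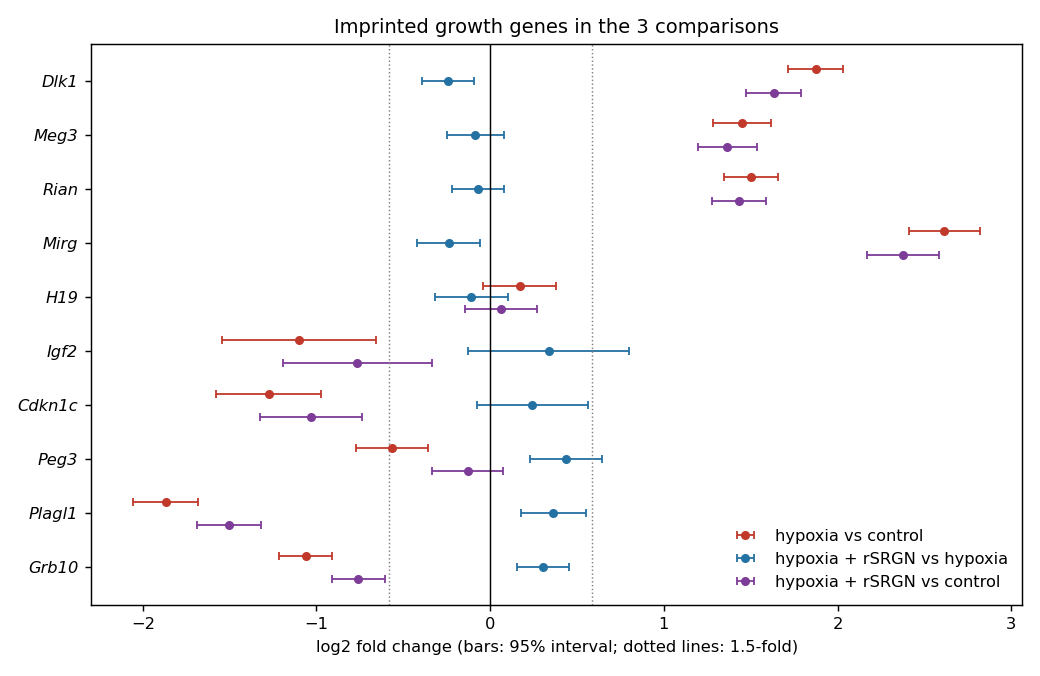
Log2 fold change of each of the 10 genes, with 95% intervals, in hypoxia against control (red), hypoxia + rSRGN against hypoxia (blue) and hypoxia + rSRGN against control (purple), with dotted lines at a fold change of 1.5. Values against control run from -1.87 for Plagl1 to 2.61 for Mirg, while values between the hypoxic groups run from -0.24 to 0.44, all inside the dotted lines.

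Ratios within a library compare neighbouring genes without depending on the scaling. The log2 ratio of Mirg to Meg3 was -4.90 ± 0.12 in control (SD, n = 3) and -3.73 ± 0.20 in hypoxia, a rise of 1.17 with no overlap. The ratio of Rian to Meg3 was 0.014 ± 0.19 in control and 0.074 ± 0.16 in hypoxia, and the groups overlapped. Within the noncoding part of the domain, Mirg thus rose more than Meg3, whereas no difference between Rian and Meg3 was seen beyond the spread of the libraries. The log2 ratio of Dlk1 to Meg3 was -2.59 ± 0.13 in control and -2.16 ± 0.069 in hypoxia, a difference of 0.43 without overlap. The log2 ratio of Igf2 to H19 was -3.80 ± 0.19 in control and -5.07 ± 0.18 in hypoxia, a difference of -1.27 without overlap. The two-sided exact permutation test gave p = 0.1 for each of these 3 differences and p = 0.7 for Rian to Meg3, and 0.1 is the smallest p that 3 against 3 libraries allow. With 4 ratios in 3 comparisons, no ratio could pass a threshold of 0.05 in this design.

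**Figure D3:**
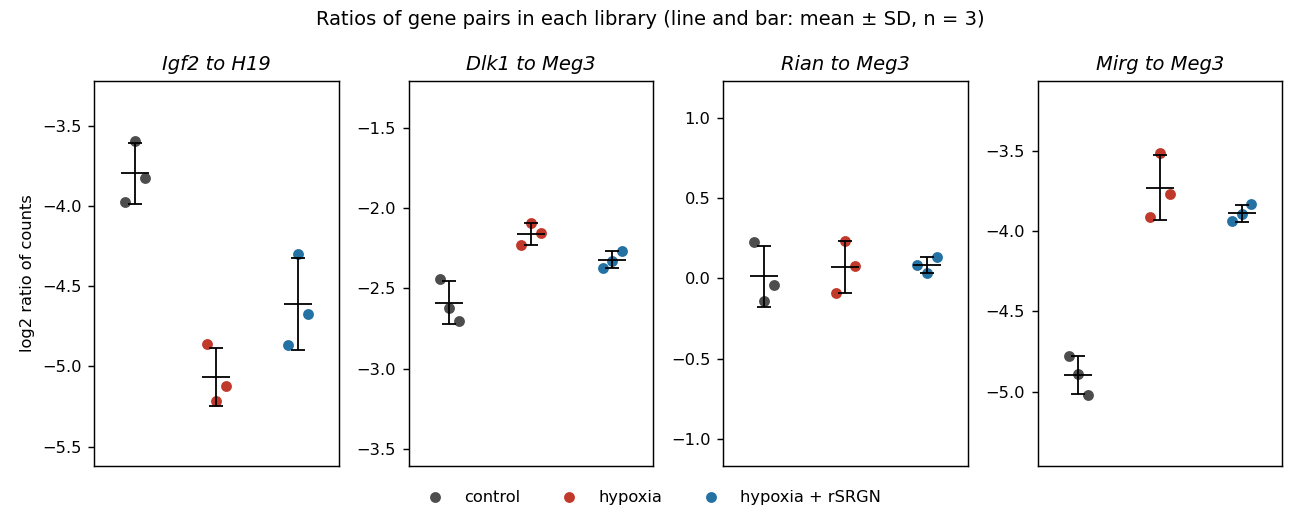
Log2 ratio of counts for 4 gene pairs in each library, with groups coloured as in the plot of levels, a black line and bar for mean ± SD and the same span of 2.4 log2 units on every vertical axis. The ratio of Mirg to Meg3 moves from -4.90 in control to -3.73 in hypoxia and that of Igf2 to H19 from -3.80 to -5.07, while Rian to Meg3 stays near 0 in all 3 groups.

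The neighbours of each gene within 500 kb were then set beside it, a window chosen after the data were seen. Around Dlk1, Meg3, Rian and Mirg, 6 of 7 other genes tested were called higher in hypoxia and 1 lower, with a median log2 fold change of 1.72, against 26.4% called higher over all genes. Some of the 6 lie within Mirg or between the members, so they do not count as separate genes against that share. Rtl1, a paternally expressed retrotransposon-derived gene of the domain, rose by 1.72 on the log2 scale (adjusted p = 6.29e-07), although reads of its maternally expressed antisense transcript cannot be told apart from its own without strand. Between Rian and Mirg, the noncoding B830012L14Rik rose by 3.70 (adjusted p = 2.16e-11) and the unclassified Gm37899 by 3.17 (adjusted p = 4.55e-05). Mir453, a hairpin inside Mirg, had 0, 0 and 1 counts in control and 6, 7 and 9 counts in hypoxia, too few for a firm value. Begain, which starts 472.8 kb before the start of Meg3, rose by 1.49 (adjusted p = 0.000121), whereas Wdr25, still further out, was lower by 0.81 on the log2 scale (adjusted p = 0.00139). Dio3, at the far end of the domain, had at most 2 counts in a library and was not tested.

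For the other loci, the shares over all genes were again 26.4% called higher and 25.1% lower. Around H19, Igf2 and Cdkn1c, 11 of 27 neighbours were called higher, 4 lower and 12 not at all, with a median log2 fold change of 0.43. Kcnq1, a cardiac potassium channel gene, and Kcnq1ot1, the noncoding RNA transcribed antisense to it in the domain of Cdkn1c, had log2 fold changes of -3.51 (adjusted p = 5.27e-15) and 0.050 (adjusted p = 0.765). Kcnq1ot1 lies within the span of Kcnq1, and without strand unspliced Kcnq1 reads there cannot be told apart from its own. Around Peg3, 1 of 12 neighbours was called higher and 7 lower, with a median of -0.70. Zim1, the maternally expressed zinc finger gene next to Peg3, fell by 2.10 on the log2 scale, whereas the value for Usp29, which shares the promoter region of Peg3, was -0.14 and was not called. Around Plagl1, 2 of 10 were called higher and 4 lower, with a median of 0.26. Around Grb10, which fell, 3 of 4 were called lower, against 25.1% of all genes, with a median of -1.38, among them Ddc, an imprinted neighbour that encodes an enzyme of monoamine synthesis, at -4.27.

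**Figure D4:**
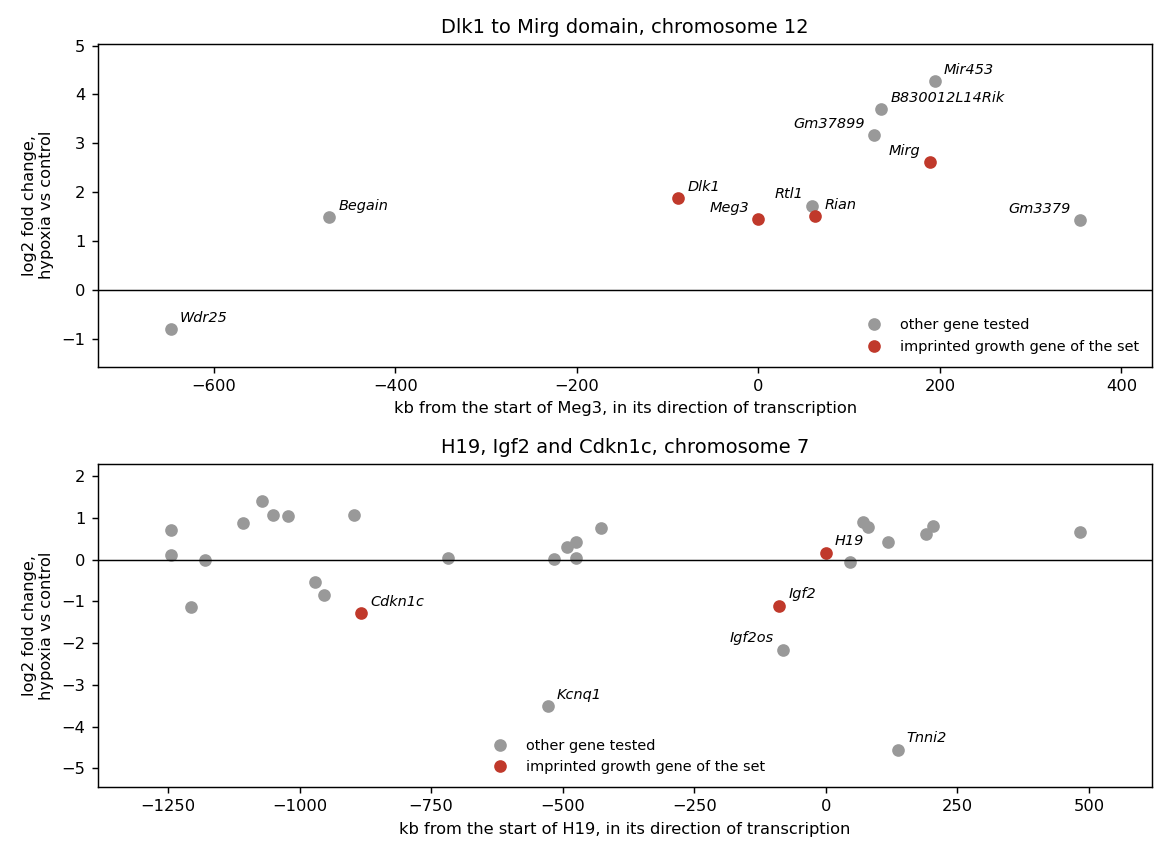
Log2 fold change in hypoxia against control of every gene tested within 500 kb of the chromosome 12 members (top) and of the chromosome 7 members H19, Igf2 and Cdkn1c (bottom), by distance in kb from the start of Meg3 or of H19, with members in red and other genes in grey. In the top panel 6 of the 7 grey points and all 4 red points lie above 0, and in the bottom panel points lie on both sides.

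Promoter windows were read for 2 short motifs, because members of the domain moved together and Plagl1 encodes a DNA-binding factor. RefSeq gave 13 windows (GRCm38.p6) of 300 bases, 250 before and 50 after a start, for 8 of the 10 genes. The motif ACGTG, the core of the element bound by hypoxia-inducible factors, was searched on both strands and was present in 19.6% of all 32851 promoter windows. The motif GGGGCCCC, a palindrome like the site described for PLAGL1, was present in 1.08%. The E-box CACGTG contains ACGTG and was present in 7.15%. The core ACGTG was found in the windows of Dlk1, of Plagl1 (inside an E-box) and in 1 of 4 windows of Igf2, and in none of the windows of Meg3, Rian, Mirg, Peg3 and Grb10. Some windows belong to RefSeq starts inside the gene as the count table gives it, among them those of Plagl1 and Mirg, and the Mirg window holds miR-485-3p, so it is not sequence before the start given above. The 250 bases before the start of Dlk1 (chr12:109452573-109452822, plus strand), which rose, are printed with the core in capitals. For Plagl1 (chr10:13090639-13090668, plus strand) and Igf2 (chr7:142658809-142658838, minus strand), which fell, 30 bases around the core are shown, and for Peg3 (chr7:6730603-6730632, minus strand) 30 bases around the palindrome.
Dlk1: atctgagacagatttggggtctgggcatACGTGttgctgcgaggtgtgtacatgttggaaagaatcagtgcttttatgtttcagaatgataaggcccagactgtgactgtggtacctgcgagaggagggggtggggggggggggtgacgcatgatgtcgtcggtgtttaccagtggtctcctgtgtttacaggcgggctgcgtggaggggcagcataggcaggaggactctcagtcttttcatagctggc
Plagl1: cctcctcctcacACGTGacactggaggggg
Igf2: ctccctccccctCACGTccgccctctgcct
Peg3: agactctgcttgGGGGCCCCtaacactgac
A core was thus found beside genes of both directions. A match describes the letters in a window and is not a binding site.

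The second comparison asked whether rSRGN changed these genes in hypoxia. No gene of the 10 was called by edgeR or by DESeq2, while 5 had an unadjusted p below 0.05 in edgeR, against 29.4% of all genes. Over all genes tested, 2.27% were called higher and 0.859% lower. Without the fold limit, 3 of the 10 passed the adjusted threshold as higher and 1 as lower, against 10.5% and 6.11% of all genes. The groups did not overlap in 7 of the 10, against 32% of all genes, and the median log2 fold change was 0.086 over the 10 and -0.029 over all genes.

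The 4 small differences that passed the adjusted threshold were in Peg3, Plagl1, Grb10 and Dlk1. Peg3 was 223, 206 and 172 CPM in hypoxia + rSRGN, above its 122 to 166 CPM in hypoxia, with a log2 fold change of 0.44 (95% interval 0.23 to 0.64, adjusted p = 0.00485). Plagl1 was 75.0, 77.0 and 69.5 CPM, with a log2 fold change of 0.36 (95% interval 0.18 to 0.55, adjusted p = 0.00811). Grb10 was 500.3, 511 and 468 CPM, with a log2 fold change of 0.30 (95% interval 0.15 to 0.45, adjusted p = 0.00660). Without hypoxia replicate 3 the adjusted p of Plagl1 was 0.0557, and without hypoxia + rSRGN replicate 2 it was 0.0540 for Plagl1 and 0.0525 for Grb10. Peg3 stayed below 0.05 without any 1 of the 6 libraries. Dlk1 was 110.5, 117 and 112 CPM, slightly below its level in hypoxia, with a log2 fold change of -0.24 (95% interval -0.39 to -0.092, adjusted p = 0.0247). Dlk1 kept an adjusted p below 0.05 without hypoxia replicate 2 and lost it without any other of the 6, at 0.0612 to 0.113. Dlk1 also lost it in a fit of only the groups compared (adjusted p = 0.0515) and with every gene of at least 1 count (adjusted p = 0.0568). The log2 fold changes of the other genes of the chromosome 12 domain were -0.24 for Mirg (adjusted p = 0.0677), -0.085 for Meg3 and -0.071 for Rian. With scaling by library size alone, Mirg was at -0.26 (adjusted p = 0.0467). Igf2 at 0.34 (95% interval -0.13 to 0.80), Cdkn1c at 0.24 and H19 at -0.11 did not pass either. Single libraries moved some of these uncalled values widely. Igf2 was at 0.18 without hypoxia + rSRGN replicate 2 and 0.54 without hypoxia replicate 1, Meg3 was at -0.17 without hypoxia replicate 2, -0.018 without hypoxia replicate 1 and -0.040 without hypoxia + rSRGN replicate 3, and Rian was at -0.045 without hypoxia replicate 3. In the same libraries 9 of 10 cardiomyocyte markers were called higher, with a median log2 fold change of 0.78. So were 2 of 6 smooth muscle and pericyte markers, Rgs5 (0.78, at 4.62 CPM in hypoxia) and Abcc9 (0.92), with a list median of 0.58. Of the endothelial markers 1 of 6, Kdr, was called higher (0.93, adjusted p = 0.00448), with a list median of 0.059, and the fibroblast marker Tcf21 was called lower (-0.76, adjusted p = 3.85e-05), while the other 7 fibroblast markers were not called. The macrophage list had a median of 0.33 and the epicardial list a median of -0.17, and 0 of 6 were called in each by edgeR or by DESeq2, with 1 of 6 at an unadjusted p below 0.05. The part of these marker changes in the differences was not tested. Among the ratios, Dlk1 to Meg3 was lower by 0.16 on the log2 scale than in hypoxia without overlap (exact permutation test, p = 0.1), whereas Igf2 to H19, Mirg to Meg3 and Rian to Meg3 overlapped between the hypoxic groups.

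The third comparison set hypoxia + rSRGN against control, and it shares its control libraries with the first comparison and its rSRGN libraries with the second. Here 4 of the 10 were called higher, against 24.1% of all genes, and 4 lower, against 24.7%. The groups did not overlap in 8 of the 10, against 73.3% of all genes. Dlk1 had a log2 fold change of 1.63 against control, Meg3 1.37, Rian 1.43 and Mirg 2.38, beside 1.87, 1.45, 1.502 and 2.61 in hypoxia alone. Igf2 was at -0.76, Cdkn1c at -1.03, Plagl1 at -1.505 and Grb10 at -0.76, beside -1.10, -1.27, -1.87 and -1.06 in hypoxia alone. Peg3 at -0.13 (95% interval -0.34 to 0.075, adjusted p = 0.248) and H19 at 0.062 (adjusted p = 0.598) were not called, and Peg3 was at -0.21 without hypoxia + rSRGN replicate 1 and -0.036 without hypoxia + rSRGN replicate 3. In hypoxia + rSRGN the log2 ratio of Mirg to Meg3 was -3.89 ± 0.053, that of Igf2 to H19 was -4.61 ± 0.29 and that of Dlk1 to Meg3 was -2.32 ± 0.052, each without overlap with control (exact permutation test, p = 0.1), while Rian to Meg3 overlapped. Cell type markers differed in the same libraries. Of the cardiomyocyte markers 10 of 10 were called lower against control (median log2 fold change -2.92), as were 6 of 6 macrophage (-3.49) and 4 of 6 endothelial markers (-0.65). Of the epicardial markers 5 of 6 were called higher (1.68), as were 5 of 8 fibroblast markers (0.78), and of the smooth muscle and pericyte markers 1 was called higher and 1 lower (0.30). Their part in the differences was not tested.

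Other imprinted genes did not move as 1 group. Of 22 further paternally expressed genes, 18 were tested, and in hypoxia 5 were called higher, 3 lower and 10 not at all. Across all genes tested, 26.4% were called higher and 25.1% lower, so these counts do not set the list apart. Its median log2 fold change was -0.083, beside 0.054 for all genes. Rtl1 was followed among those that rose by Sgce, a sarcoglycan gene, at 1.32 (adjusted p = 2.93e-10) and Nnat, a small membrane protein gene, at 1.00 (adjusted p = 0.000205). Mest, a growth-promoting gene of the hydrolase family, fell by 1.27 on the log2 scale (adjusted p = 1.03e-09), the amino acid transporter gene Slc38a4 by 1.02 (adjusted p = 4.75e-09) and the splicing factor gene Snrpn by 0.87 (adjusted p = 1.05e-05). Of 10 further maternally expressed genes, 8 were tested, with 2 called higher, 4 lower and a median of -0.51, beside the same shares over all genes. Slc22a18, a transporter gene in the domain of Cdkn1c, was at 1.07 and H13, a signal peptide peptidase gene, at 0.96, whereas Kcnq1, Zim1 and Asb4 (-1.99), the gene of a ubiquitin ligase adaptor, had the largest falls. In hypoxia + rSRGN against hypoxia, Peg12 and Rtl1 were called lower (-0.69 each), and Igf2r (0.63) and Kcnq1 (0.77) were called higher. Magel2, Snurf, Rasgrf1, Dio3, Phlda2 and Ascl2 had too few counts to be tested.

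Of 14 genes that set or keep imprints, 3 were called higher, 2 lower and 9 not at all in hypoxia, with a median of 0.081. Calls were no more common here than over all genes tested, at 26.4% higher and 25.1% lower. Zfp57, which protects methylated imprint control regions, rose from 22.8 to 64.7 CPM on average (log2 fold change 1.505, adjusted p = 3.64e-12). Uhrf1, which recruits the maintenance methyltransferase, rose by 0.89 and Ezh2, a histone methyltransferase, by 0.64. Dnmt3a, a de novo DNA methyltransferase, fell from 137 to 52.2 CPM (log2 fold change -1.39, adjusted p = 1.60e-12) and Zfp445 fell by 0.62. With rSRGN against hypoxia, 0 of the 14 were called by edgeR or by DESeq2, and 7 had an unadjusted p below 0.05. Methylation was not measured.

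Of 15 genes of the IGF system (IGF1, receptors, IGF-binding proteins, the proteases that cut them, and proteins that bind Igf2 mRNA), 7 were called higher, 3 lower and 5 not at all, with a median of 0.39. The shares over all genes tested were 26.4% higher and 25.1% lower. The binding proteins Igfbp7 (2.16), Igfbp3 (1.84) and Igfbp2 (1.67) rose most, and Igfbp7 reached 1248 CPM in hypoxia from 279 CPM. Igfbp5 fell by 3.60 on the log2 scale (adjusted p = 2.88e-17), from 75.1 to 6.19 CPM. The insulin receptor gene Insr fell by 2.03, and Igf2r, the maternally expressed receptor that clears IGF2, fell by 0.87 (adjusted p = 1.54e-08), from 486 to 266 CPM. Igf2r was the 1 gene of this list called with rSRGN by edgeR (DESeq2 called 2), where it stood at 411 CPM (log2 fold change 0.63, adjusted p = 0.000137). Igf1r, the receptor that carries the growth signal, was at 0.030 (adjusted p = 0.726) and was not called. The ligand Igf2 and the receptors that were called were thus lower in hypoxia, while Igfbp2, Igfbp3, Igfbp4 (1.32), Igfbp6 (1.58) and Igfbp7 were higher and Igfbp5 was lower.

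**Figure D5:**
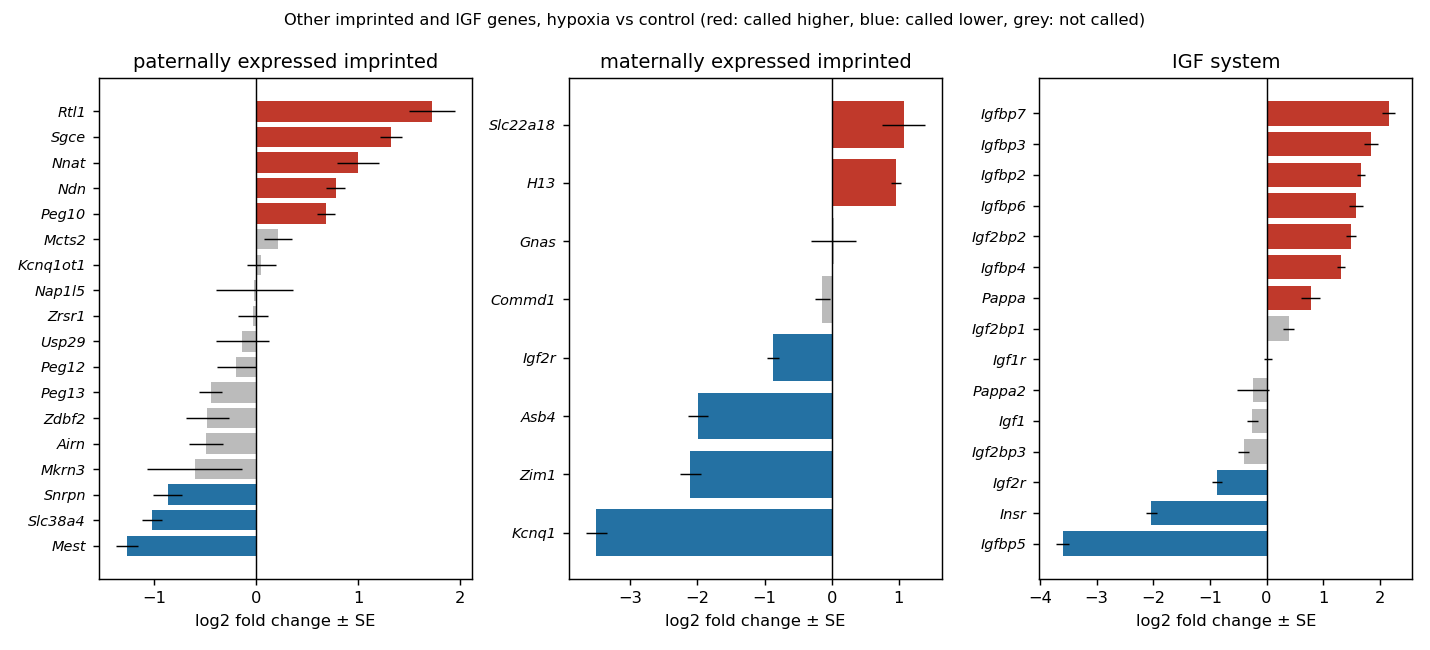
Log2 fold change ± SE in hypoxia against control of further paternally expressed imprinted genes, further maternally expressed imprinted genes and genes of the IGF system, with called genes in red (higher) or blue (lower) and others in grey. The paternally expressed list has 5 red and 3 blue bars, the maternally expressed list 2 and 4, and the IGF list 7 and 3.

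Relatives of the members in the same protein families gave a further comparison. Cdkn1a, which encodes the inhibitor p21, rose by 0.98 on the log2 scale in hypoxia (adjusted p = 1.04e-08), whereas Cdkn1b, which encodes p27, was at -0.16 (adjusted p = 0.0692) and Cdkn1c fell by 1.27. Grb14, the closest relative of Grb10, fell by 2.75 (adjusted p = 1.04e-16), from 126 to 18.7 CPM. Plag1 fell by 1.11 and Plagl2 fell by 1.12, both less than Plagl1. Dlk2, the relative of Dlk1, was at 0.650 CPM in hypoxia and 0.615 CPM in control and was not called, and Grb7 had at most 12 counts. With rSRGN against hypoxia, 0 of the 6 relatives tested were called by edgeR or by DESeq2, and 3 had an unadjusted p below 0.05, of which Grb14 at 0.53 (adjusted p = 0.000850) and Plagl2 at 0.40 (adjusted p = 0.0444) passed without the fold limit.

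Grb10 had the highest level per kb of the 10 averaged over the 9 libraries, although H19 was first in hypoxia and overlapped with it in both hypoxic groups. The genes most like Grb10 were sought over these libraries by the Euclidean distance between centred log2 CPM profiles among 14257 genes. The nearest were Ipo8 (distance 0.112), a nuclear import receptor gene, Rab3gap1 (0.123), a subunit of a Rab GTPase regulator, and Ncoa2 (0.132), a nuclear receptor coactivator gene. Ipo8 averaged 64.6 CPM in control, 31.5 CPM in hypoxia and 38.8 CPM in hypoxia + rSRGN. These points share their libraries and scaling, and the distances are a description.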

How the data were processed

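The deposited values are raw counts of fragments per gene, as the authors made them. The file header names featureCounts 2.0.1 with paired-end counting over exons, GENCODE mouse release 25 (GRCm38) and no strand option, and the submitters' processing notes name HISAT2 and mm10. The samples were grouped by the treatment in their labels, and 0 count columns were left unused. The paper does not describe these cultures.

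In R 4.3.3, genes were filtered with filterByExpr in edgeR 4.0.16, scaled by TMM and fitted over all 9 libraries with a mean per group, and the quasi-likelihood test was adjusted by Benjamini-Hochberg over 16762 genes. Ratios within a library used raw counts with a pseudocount of 0.5 and two-sided exact permutation tests. DESeq2 1.42.0, other scalings, filters and limits, a replicate block and each library left out were the alternatives. Same-numbered libraries did not deviate together (correlations of -0.037 to 0.021 over 9 pairs). Within groups, libraries differed by more than sampling noise (chi-square per degree of freedom of 3.63 to 13.1).

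The 10 genes and all gene and marker lists were chosen with earlier results of these data known. From each list, up to 3 genes called higher and 3 called lower in hypoxia with the largest fold change and a mean of at least 1 CPM were named, with all family relatives. The neighbours named around the loci, and Kcnq1ot1, Usp29 and Ddc, were chosen after their values were seen. Sequences are from RefSeq, and coding bases from GENCODE mouse release 21 (GRCm38).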

Additional observations from a re-analysis of the deposited data

How the results depend on the processing

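In hypoxia + rSRGN against hypoxia, the number of the 10 genes called rose from 0 to 4 with no fold change limit, and the counts in the other comparisons and alternatives were within 1.5 times of those reported. The fold changes of H19, not called, turned direction in 3 cases where 1 library was left out. The H19 value in hypoxia + rSRGN against control, 0.062, ranged from -0.075 (without hypoxia + rSRGN replicate 1) to 0.16 and was -0.0070 without control replicate 1. The H19 value in hypoxia + rSRGN against hypoxia, -0.11, ranged from -0.24 to 0.0062 (without hypoxia + rSRGN replicate 3). The cause was not tested. Peg3 in hypoxia against control was also called with RLE scaling (-0.59), with every gene of at least 1 count (-0.62) and with no fold change limit. The IGF system genes called higher with rSRGN against hypoxia were 1 with edgeR and 2 with DESeq2. With a replicate block, 8, 0 and 8 genes were called in the 3 comparisons, as without it, and the shared replicate numbers showed no pairing. With 3 libraries a group, the exact permutation tests of ratios could not go below p = 0.1. Igf2, Cdkn1c and, in control, Mirg rested on few fragments, and Igf2 and Cdkn1c on part of their exons.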
